A study of Homo sapiens with 9 samples.

Results

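Expression of 6 genes of haem breakdown and iron handling, of 14207 genes measured, was followed in human ARPE-19 cells, an established line of retinal pigment epithelium, given vehicle or 1 of 2 doses of cigarette smoke condensate. They were HMOX1, BLVRA, FTL, SLC40A1, TFRC and FECH, chosen by gene symbol with earlier results of these data known. Each had a single probe set naming that gene only, so no choice between probe sets by their mean level was needed. The differences between doses given for these 6 genes are therefore a description of known results and support nothing on their own.

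The study had 9 arrays of total RNA, 3 from cells given vehicle (control), 3 from cells given 100 µg/ml of the condensate and 3 from cells given 250 µg/ml. All cells were of the same line, grown to confluence with serum and then kept in medium with albumin. The condensate was bought as a DMSO solution of 40 mg/ml holding 6% nicotine, prepared from research cigarettes, and was diluted in culture medium. What the vehicle held and how long the cells were treated is not stated in the labels. Arrays are numbered 1 to 3 within a group, and nothing states whether each came from its own culture. The p-values therefore rest on the spread between these arrays alone, which may be technical.

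Haem oxygenase opens the haem ring and releases iron, carbon monoxide and biliverdin, which biliverdin reductase turns into bilirubin. The freed iron is stored in ferritin or leaves the cell through ferroportin, while the transferrin receptor brings iron in and ferrochelatase inserts it into new haem. HMOX1 is a classical target of the transcription factor NRF2 and is held down by the haem-sensing repressor BACH1. Iron also acts after transcription: iron regulatory proteins bind hairpins in the untranslated regions of the FTL, SLC40A1 and TFRC messages and change their translation or stability. An array of transcripts sees a change in message level and not a change in translation. The retinal pigment epithelium takes up iron for the outer retina, and iron accumulates there in disorders of iron export.

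Such a hairpin begins within the window held here for FTL. The stretch below is shown because it carries the conserved loop through which iron regulatory proteins act on ferritin translation. It covers bases 26 to 50 of the transcript (chr19:48965334-48965358, plus strand, RefSeq, GRCh38.p14), and the capitals mark a match to CAGTGN.
FTL: tctcttgcttcaaCAGTGTttggac
The letters CAGTGN, searched on the sense strand in the first 50 bases, occurred in 6.36% of 35116 promoter entries. The promoter table held 5 of the 6 genes, all but HMOX1, and FTL was the 1 of these 5 with the loop letters in this window.

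A second stretch is shown because FECH was, after HMOX1, the gene of the 6 with the next largest difference at 100 µg/ml. At 250 µg/ml the next largest was that of FTL (1.40 log2 units, against 1.22 for FECH). The stretch covers the 60 bases before the FECH start (chr18:57586703-57586762, minus strand, RefSeq, GRCh38.p14). The capitals mark a match to the core of the antioxidant response element, TGACNNNGC, which here lies on the opposite strand.
FECH: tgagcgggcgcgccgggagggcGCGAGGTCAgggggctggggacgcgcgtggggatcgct
That core, searched on both strands in the 250 bases before the start, occurred in 10.9% of the 35116 entries. Of the 5 genes held it occurred in 1, FECH, and not in FTL. Any tie between the match and the values under condensate was not tested. Both matches describe letters, not sites in use, and the lack of a match elsewhere says only that these letters are not in the window searched.

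The values are log2 expression levels made with RMA, so a difference of 1 is a 2-fold change, and levels of different genes cannot be compared. Array medians lay between 4.42 and 4.59 and lower quartiles between 2.89 and 3.10. Among 11 measured markers of retinal pigment epithelium the keratin gene KRT8 had a control mean of 11.30, OTX2 8.99 and MITF 7.62, whereas the visual cycle gene RPE65 (2.67) and BEST1 (2.80) lay below the lower quartile of each control array. The mean over these 11 markers lay between 5.65 and 6.05 in the controls, 5.28 and 5.56 at 100 µg/ml and 5.25 and 5.57 at 250 µg/ml. The part of this shift in the results below was not tested. The 6 macrophage and 5 erythroid markers had list means between 2.95 and 3.24 on every array, near the lower quartile. The 5 mesenchymal markers did not lie there. Their list means were between 5.36 and 6.50, with control means of single genes from 2.56 (THY1) to 11.45 (VIM).

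Control replicate 2 stood apart. In 15 genes it lay at least 2 log2 units above all the other 8 arrays and in 3 genes at least 2 units below them, and no other array had such a gene. Of the 4 measured export genes, CP and HEPH differed on this array, as described with the export genes. For a number of genes named below, values without control replicate 2 stand beside those with it. All groups share 1 estimate of spread in the model, limma fitted on all 9 arrays. A gene is said to have risen or fallen only at an adjusted p below 0.05 over all 14207 genes. At that threshold 0.0633% of all genes passed at 100 µg/ml and 0.549% at 250 µg/ml. With shares so low, a count of 0 in a short list below says little about that list.

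HMOX1, the inducible haem oxygenase, was the gene of the 6 that rose. It read 6.26, 6.53 and 6.38 on the 3 control arrays. At 100 µg/ml it read 9.29, 9.13 and 8.12, and at 250 µg/ml 10.36, 10.94 and 10.54. The 3 groups did not overlap, and the order was control, then 100, then 250 µg/ml, with the third array at 100 µg/ml about a whole log2 unit below the others of its group.

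Against the controls HMOX1 rose by 2.46 ± 0.29 log2 units (SE, n = 3 per group) at 100 µg/ml, limma adjusted p = 0.0485. At 250 µg/ml it rose by 4.23 ± 0.29, adjusted p = 0.0042. No gene of the 14207 had a higher difference at 250 µg/ml, where HMOX1 held rank 1, and at 100 µg/ml it held rank 4. Of all genes 0.0563% were called higher at 100 µg/ml and 0.387% at 250 µg/ml, which is the background to the 1 of 6 called at each dose. The call at 100 µg/ml was a narrow one. It ended in 7 of 14 alternatives, among them quantile normalization (adjusted p = 0.074), a fit of the 6 compared arrays (0.20), and leaving out control replicate 1 (0.091), control replicate 2 (0.071), 100 µg/ml replicate 1 (0.31) or 100 µg/ml replicate 2 (0.30). Leaving out 1 array at a time moved the change between 2.24 and 2.82 log2 units. The call at 250 µg/ml held in all 14 alternatives, with adjusted p from 7.4e-04 to 0.027. Among the 14, the mean over probe sets could not alter the HMOX1 values, as this gene has a single probe set.

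**Figure D1:**
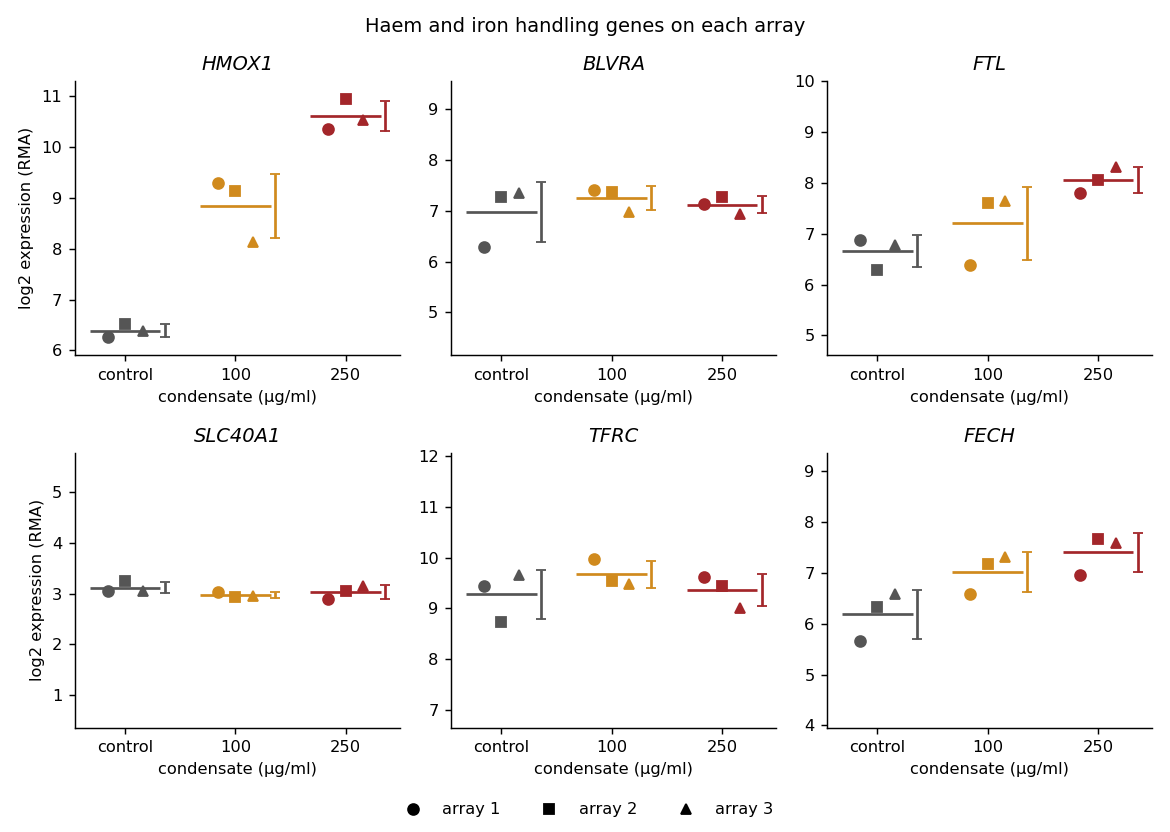
Log2 expression (vertical axis, RMA, each panel spanning the same number of log2 units) of the 6 genes on the 9 arrays by dose group (horizontal axis). Symbols mark the array number, horizontal lines the group mean and bars 1 SD (n = 3). HMOX1 climbs without overlap from 6.26 to 6.53 in the controls to 10.36 to 10.94 at 250 µg/ml, while SLC40A1 stays between 2.89 and 3.24.

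The dose step from 100 to 250 µg/ml added 1.77 ± 0.29 log2 units to HMOX1, a 3.41-fold difference, and the 95% interval ran from 1.10 to 2.44 log2 units. This was the highest of the 14207 differences in that comparison. It did not pass (unadjusted p = 2.5e-04, limma adjusted p = 1.00 over all genes), in a comparison in which 0% of genes were called and 1.84% (262 genes) had an unadjusted p under 0.05. The arrays of both doses pair by number in these data. Within the numbers 1, 2 and 3 the step was 1.07, 1.81 and 2.42, so all 3 pairs went up and the pair with the lowest start at 100 µg/ml had the largest step. With the array number as a block the adjusted p was again 1.00.

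The other enzymes of haem breakdown differed less. HMOX2, the constitutive haem oxygenase, differed from control by 0.09 ± 0.20 at both doses (adjusted p = 0.87 and 0.85). BLVRA, which encodes biliverdin reductase A, read 6.29, 7.28 and 7.35 in the controls. At 100 µg/ml it read 7.42, 7.38 and 6.98 and at 250 µg/ml 7.13, 7.27 and 6.94. Control replicate 1 was the low one, and the other 8 arrays lay between 6.94 and 7.42.

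The difference of BLVRA from control was 0.29 ± 0.27 at 100 µg/ml and 0.14 ± 0.27 at 250 µg/ml (adjusted p = 0.65 and 0.82), with 95% intervals of -0.34 to 0.91 and -0.48 to 0.77. Without control replicate 1 both turned negative, to -0.053 and -0.20. Without control replicate 2 they were 0.44 and 0.30. BLVRB, the second biliverdin reductase, had differences of -0.03 ± 0.24 and 0.11 ± 0.24 (0.97 and 0.84), or 0.11 and 0.25 without control replicate 2. POR supplies the electrons that haem oxygenase needs. It read 5.88, 6.27 and 6.17 in the controls, 6.22, 6.27 and 7.06 at 100 µg/ml and 7.00, 7.42 and 7.37 at 250 µg/ml. Its 250 µg/ml arrays lay above every control, by a mean of 1.16 ± 0.24 (limma adjusted p = 0.069). This passed after median centring (0.043) and with array weights (0.047). Without control replicate 2 it was 1.24 ± 0.27 (0.115) and did not pass.

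FTL encodes the light chain of ferritin, the shell that stores iron. It read 6.88, 6.29 and 6.78 in the controls, 6.37, 7.60 and 7.64 at 100 µg/ml, and 7.80, 8.05 and 8.32 at 250 µg/ml. The 250 µg/ml arrays lay above all 6 others. At 100 µg/ml replicate 1 fell among the controls while replicates 2 and 3 lay above them.

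FTL at 250 µg/ml was higher than control by 1.40 ± 0.34 (2.65-fold), with a 95% interval of 0.63 to 2.17 log2 units and limma adjusted p = 0.096, and did not pass. It ranked 51 of 14207 among the highest differences. Leaving out 1 array at a time kept the difference between 1.22 and 1.53. At 100 µg/ml it was 0.55 ± 0.34 (0.47), and it was 0.97, 0.36 and 0.33 without 100 µg/ml replicates 1, 2 and 3 in turn, none of which passed. Between the doses FTL differed by 0.85 ± 0.34 (adjusted p = 1.00), rank 7 of all genes, and by 1.42, 0.45 and 0.68 within the 3 array numbers. The step was 0.44 ± 0.21 without 100 µg/ml replicate 1. Ferritin genes have many processed pseudogenes, and signal from near-identical copies cannot be told apart from that of FTL here.

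Of the other storage genes, NCOA4, the receptor that sends ferritin to the lysosome, had differences of 0.16 ± 0.14 and 0.20 ± 0.14 (0.61 and 0.48). The iron chaperone genes PCBP1 and PCBP2 had differences between -0.37 and 0.20 over both doses. At 100 µg/ml PCBP2 lay wholly below the controls (8.66 to 8.87, against 9.03 to 9.41). So did the storage gene FTMT (2.43 to 2.49, against 2.63 to 2.86), which sat near the bottom of the scale. The heavy chain gene FTH1 was not analysed here. In all, 0 of 5 measured storage genes passed at either dose.

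FECH encodes ferrochelatase, the last enzyme of haem synthesis. It read 5.65, 6.32 and 6.58 in the controls, 6.58, 7.18 and 7.32 at 100 µg/ml, and 6.96, 7.66 and 7.59 at 250 µg/ml. Array 1 was the lowest of each group, and array 3 the highest in the controls and at 100 µg/ml but not at 250 µg/ml. The 250 µg/ml arrays all lay above the controls, whereas at 100 µg/ml replicate 1 (6.578) fell just under control replicate 3 (6.580).

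The difference of FECH was 0.84 ± 0.30 at 100 µg/ml (1.79-fold, adjusted p = 0.27) and 1.22 ± 0.30 at 250 µg/ml (2.32-fold, 95% interval 0.53 to 1.90 log2 units, adjusted p = 0.10), and neither passed in the fit without a block on the array number. From 100 to 250 µg/ml FECH differed by 0.38 ± 0.30 (adjusted p = 1.00), and by 0.38, 0.48 and 0.27 within the numbers. ALAS1, the rate-limiting first enzyme of the same pathway, read 6.46, 5.73 and 5.89 in the controls, 6.74, 6.62 and 6.30 at 100 µg/ml and 7.27, 6.75 and 6.82 at 250 µg/ml. It differed from control by 0.53 ± 0.23 (0.33) and 0.92 ± 0.23 (0.10), and its 250 µg/ml arrays lay above the controls too. Without control replicate 2, its lowest control, the differences were 0.38 ± 0.24 and 0.77 ± 0.24 (limma adjusted p = 0.60 and 0.22). The steps between these ends of the pathway showed smaller differences: UROS, UROD, CPOX and PPOX had values between 0.13 and 0.24 at 250 µg/ml, and between 0.21 and 0.43 without control replicate 2. Of 7 measured synthesis genes 0 passed at either dose without the block, and 7 of 7 had a mean above control at 250 µg/ml, against 6072 of 14207 genes.

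**Figure D2:**
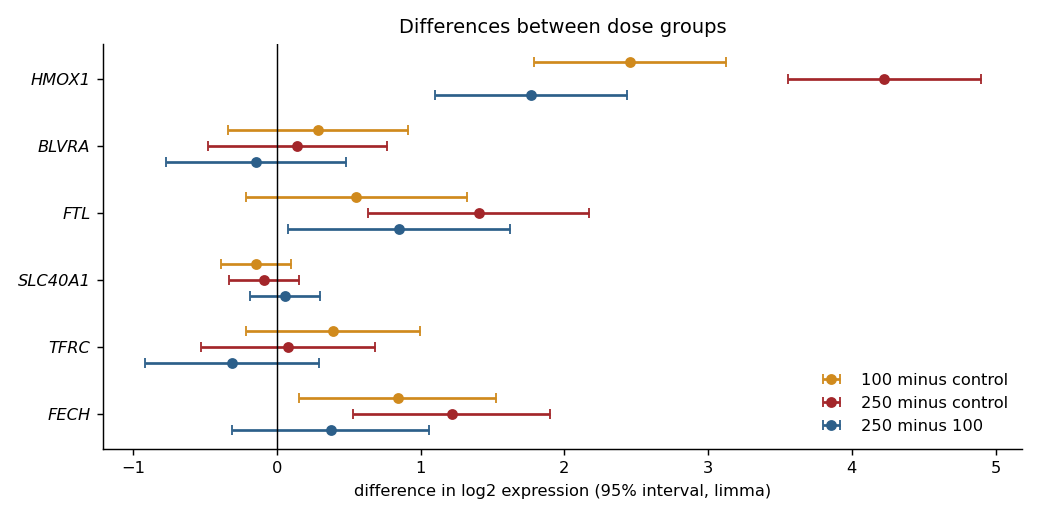
Difference in log2 expression (horizontal axis) of the 6 genes (vertical axis) between dose groups, with the 95% interval of the limma fit on 9 arrays. The HMOX1 intervals lie wholly above 0 in the 3 comparisons, and those of FTL and FECH do so for 250 µg/ml minus control. So do FECH for 100 µg/ml minus control (0.16 to 1.53) and FTL for 250 minus 100 µg/ml (0.08 to 1.62). Those of BLVRA, SLC40A1 and TFRC span 0 throughout.

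TFRC, the transferrin receptor that carries iron into the cell, read 9.45, 8.74 and 9.66 in the controls, 9.98, 9.55 and 9.49 at 100 µg/ml and 9.63, 9.44 and 9.01 at 250 µg/ml. The 3 groups overlapped, and the lowest array was control replicate 2. The differences from control were 0.39 ± 0.27 (adjusted p = 0.52, 95% interval -0.22 to 1.00) and 0.08 ± 0.27 (0.90, -0.53 to 0.68). Without control replicate 2 they were 0.12 ± 0.22 and -0.19 ± 0.22. From 100 to 250 µg/ml TFRC differed by -0.31 ± 0.27 (adjusted p = 1.00), and all 3 array numbers went down, by -0.35, -0.10 and -0.48.

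Proliferating cells take up more iron, so a list of 10 measured proliferation genes was set beside TFRC. Its mean lay between 6.90 and 7.90 in the controls, 8.10 and 8.87 at 100 µg/ml and 7.78 and 8.14 at 250 µg/ml. Control replicate 2 was the lowest array in both TFRC and this list. All 10 genes had a mean above control at both doses and a lower mean at 250 than at 100 µg/ml, with 0 of 10 passing in any of the 3 comparisons. Without control replicate 2 the list median went from 0.95 to 0.63 at 100 µg/ml and from 0.48 to 0.08 at 250 µg/ml, where MCM2, MCM5, MKI67 and TOP2A then lay below control (-0.08, -0.20, -0.20 and -0.03). The part of proliferation in the TFRC values was not tested.

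Among the other uptake genes, SLC11A2, the endosomal iron transporter, had differences of 0.36 ± 0.17 and 0.12 ± 0.17 (adjusted p = 0.36 and 0.75). The ferrireductase gene STEAP3 had 0.14 ± 0.18 and 0.05 ± 0.18, or 0.32 ± 0.16 and 0.23 ± 0.16 without control replicate 2. SLC39A14, a transporter of iron not bound to transferrin, had 0.23 ± 0.28 and 0.34 ± 0.28. Of 13 measured uptake genes 0 passed at either dose.

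SLC40A1 encodes ferroportin, the only known iron exporter of animal cells. It read 3.06, 3.24 and 3.05 in the controls, 3.04, 2.93 and 2.96 at 100 µg/ml and 2.89, 3.05 and 3.15 at 250 µg/ml. Between 21.5% and 30.1% of the probe sets of the same array lay below it, so it sat near the bottom of the scale, where RMA compresses differences and a low value does not tell whether the gene was expressed. At 100 µg/ml its arrays lay below the controls by a narrow gap.

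The difference of SLC40A1 was -0.15 ± 0.11 at 100 µg/ml (adjusted p = 0.55) and -0.09 ± 0.11 at 250 µg/ml (0.70), the second turning to 0.016 after quantile normalization. Without control replicate 2 they were -0.08 and -0.03. The 95% intervals, -0.39 to 0.10 and -0.33 to 0.16, are those of a compressed scale. No overlap with the controls at 100 µg/ml was seen in 2 of the 6 genes, HMOX1 above and SLC40A1 below, where 6.41% of all genes lay wholly above and 11.9% wholly below. At 250 µg/ml it was seen in 3 genes, HMOX1, FTL and FECH, all above, where 8.61% of all genes lay wholly above. Between the doses 2 of the 6, HMOX1 and FTL, did not overlap and were higher at 250 µg/ml, against 3.32% of all genes.

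Ferroportin works with the copper oxidases ceruloplasmin (CP) and hephaestin (HEPH), which oxidise the iron it exports, and both are named after their values were seen. HEPH read 2.57, 7.36 and 2.55 in the controls and between 2.44 and 2.57 on the 6 treated arrays. CP read 7.18, 2.83 and 8.28 in the controls, 4.18, 5.32 and 4.77 at 100 µg/ml and 3.46, 4.67 and 4.21 at 250 µg/ml. Control replicate 2 was thus the highest array for HEPH and the lowest for CP.

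With all arrays the difference of CP was -1.34 ± 1.19 at 100 µg/ml and -1.98 ± 1.19 at 250 µg/ml (adjusted p = 0.62 and 0.44). Without control replicate 2 it was -2.98 ± 0.48 (0.12) and -3.62 ± 0.48, and the second passed (limma adjusted p = 0.037). For HEPH the same step took -1.64 ± 1.10 and -1.66 ± 1.10 to -0.04 ± 0.10 and -0.07 ± 0.10. The collagen gene COL1A1, a mesenchymal marker, also read 6.55 on that control array and between 3.50 and 3.75 on the other 8. The rest of the mesenchymal list did not share this. On control replicate 2 COL1A2 (3.45) and VIM (11.48) lay between the other controls. THY1 (2.59) and PDGFRB (8.41) lay close to control replicate 1 (2.59 and 8.30). What sets control replicate 2 apart was not tested.

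**Figure D3:**
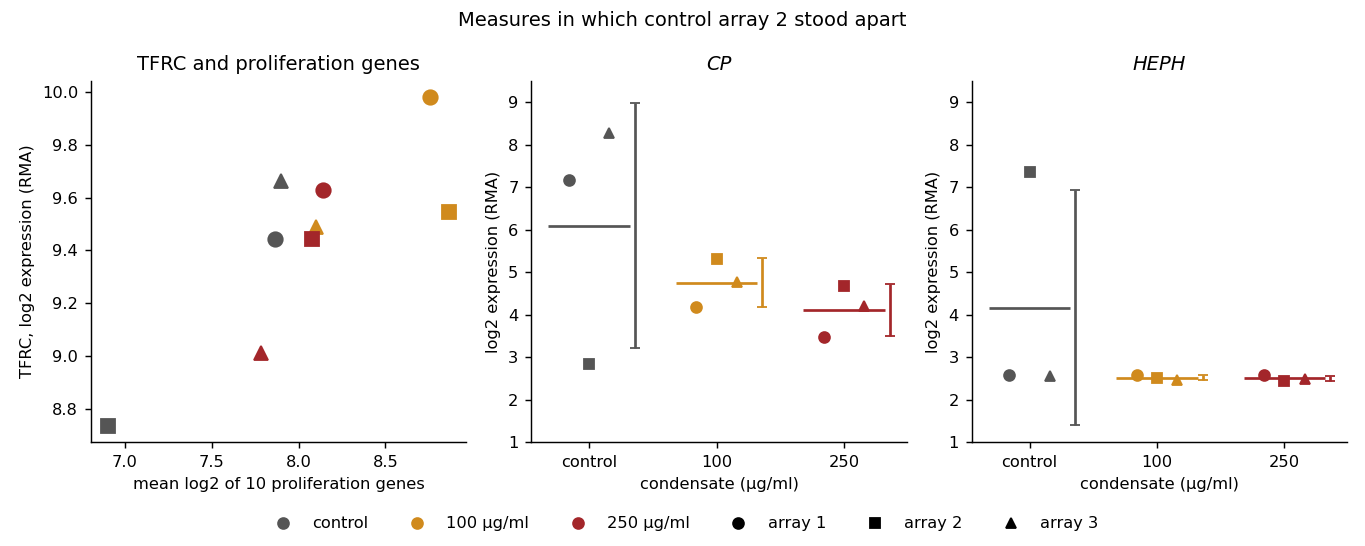
Left, TFRC (vertical axis, log2 expression) against the mean log2 level of 10 proliferation genes (horizontal axis) on the 9 arrays; middle and right, CP and HEPH by dose group with the group mean and 1 SD (n = 3). Control array 2 is lowest in TFRC (8.74), in the proliferation mean (6.90) and in CP (2.83), and highest in HEPH (7.36).

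Sensors of iron and haem gave values above control for some members. FBXL5, which marks iron regulatory protein 2 for destruction when iron is plentiful, read 7.59, 8.08 and 8.20 in the controls, 8.65, 8.68 and 8.56 at 100 µg/ml and 9.17, 9.08 and 8.49 at 250 µg/ml. Both doses lay above every control, with differences of 0.67 ± 0.21 (limma adjusted p = 0.24) and 0.96 ± 0.21 (0.081). The second passed with array weights (0.046) and without 250 µg/ml replicate 3 (0.045). Without control replicate 2 they were 0.74 ± 0.24 (0.37) and 1.02 ± 0.24 (0.13). ACO1, which encodes iron regulatory protein 1, read 8.76, 8.62 and 8.65 in the controls and between 9.04 and 9.40 on the treated arrays. Its differences were 0.57 ± 0.11 (0.13) and 0.42 ± 0.11 (0.11), and the first passed with array weights (0.040). Without control replicate 2 the ACO1 differences were 0.54 ± 0.12 (0.23) and 0.39 ± 0.12 (0.23).

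BACH1, the haem-sensing repressor of HMOX1, had differences of -0.05 ± 0.15 and -0.18 ± 0.15 (adjusted p = 0.90 and 0.57), and KEAP1, the inhibitor of NRF2, 0.03 ± 0.22 and -0.03 ± 0.22 (0.96 and 0.97). The KEAP1 values turned on control replicate 2, which read 9.04 where controls 1 and 3 read 8.16 and 8.14 and the treated arrays 8.39 to 8.55. Without it they were 0.33 ± 0.10 and 0.27 ± 0.10 (adjusted p = 0.36 and 0.31). NFE2L2 and IREB2 were not analysed here. Of 6 measured sensing genes 0 passed at either dose.

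In haem transport 0 of 7 measured genes passed. The following were named after their values were seen. SLC48A1, which moves haem out of endosomes and lysosomes, read 5.93, 5.65 and 6.49 in the controls, 6.62, 6.18 and 6.71 at 100 µg/ml and 7.11, 7.07 and 7.41 at 250 µg/ml. Its 250 µg/ml arrays lay above all 6 others. The difference from control was 1.17 ± 0.23 (limma adjusted p = 0.063). It passed after median centring (0.046) and without control replicate 3 (0.024), but was 0.99 ± 0.23 (0.12) without control replicate 2. FLVCR1, a haem exporter, differed by 0.65 ± 0.15 (0.18) and 0.68 ± 0.15 (0.077), and both doses lay above every control.

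**Figure D4:**
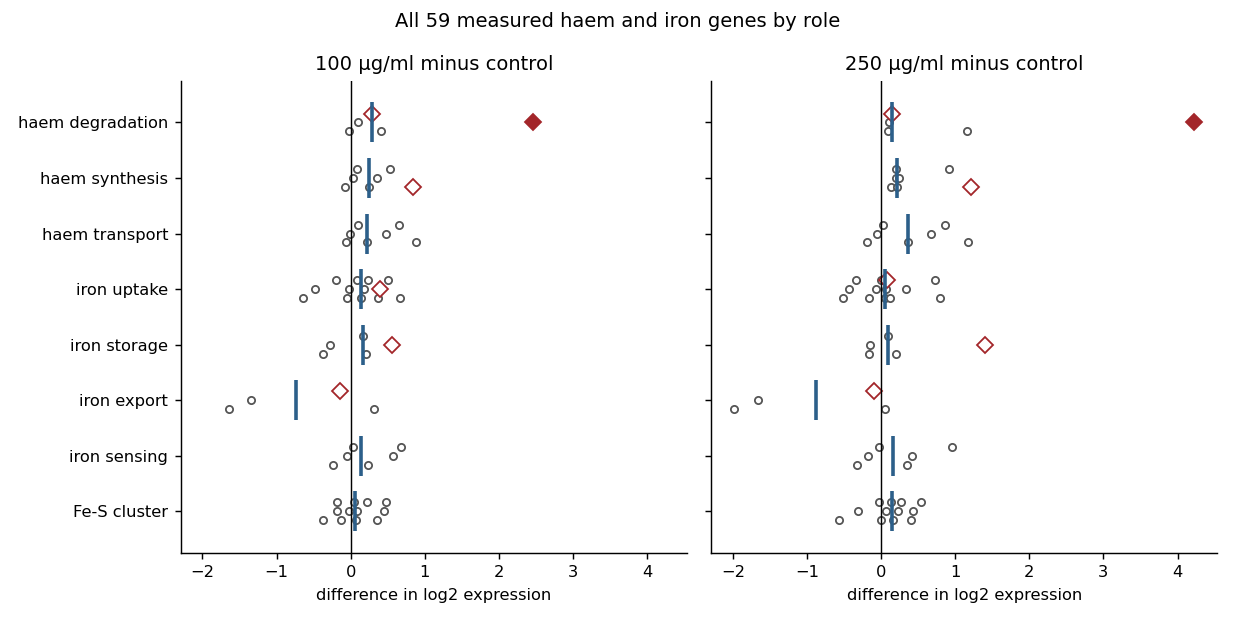
Difference in log2 expression from control (horizontal axis) of the 59 measured haem and iron genes by role (vertical axis), at 100 µg/ml on the left and 250 µg/ml on the right. Diamonds are the 6 genes described, circles the others, filled symbols those past the threshold, and blue bars role medians. HMOX1 (2.46 and 4.23) is the single filled symbol at each dose, and the 2 circles furthest left are CP and HEPH, whose values turn on control array 2.

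Over the whole list, 83 haem and iron genes chosen by role, 59 were measured alone. HMOX1 was the 1 gene of these 59 that rose at either dose and 0 fell, against 0.0633% of all genes called in either direction at 100 µg/ml and 0.549% at 250 µg/ml. Without the 6 genes, 0 of 53 passed at either dose, and 9 and 13 had an unadjusted p under 0.05, against 14.6% and 16.6% of all genes. The median over the 59 was 0.10 at 100 µg/ml and 0.12 at 250 µg/ml, beside -0.05 and -0.04 over all genes. Of the 53, 10 lay wholly above the controls at 250 µg/ml and 3 wholly below, where all genes gave 8.61% and 14.3%. At 100 µg/ml the counts were 5 and 3, against 6.41% and 11.9%. Those wholly below were TFR2, MMS19 and MAFF at 250 µg/ml and PCBP2, FTMT and SLC25A37 at 100 µg/ml. Without control replicate 2 the medians over the 59 were 0.15 and 0.21.

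The genes whose profile over the 9 arrays was most like each of the 6 were found by Pearson's r of the log2 values. These are descriptions: the 9 points share 3 dose groups and a common normalization. For HMOX1 they were SH3BP5, TSHZ1, HSPA12A, TBC1D4 and SLC3A2, with r from 0.949 to 0.965. Their differences from control at 250 µg/ml lay between 0.61 and 1.06 log2 units, against 4.23 for HMOX1. For FECH they were ANGEL2 (r = 0.983), MANSC1 (0.974) and ZBTB21 (0.974), of which MANSC1 had differences of 0.91 and 1.23, close in size to those of FECH. For FTL they were DZIP1 (0.973), SEPTIN6 (0.939) and SUOX (0.936). For TFRC they were ASPM (0.961), EVX1 (0.940) and ANKRD28 (0.923), for BLVRA ALG14 (0.969), BLOC1S6 (0.961) and NIP7 (0.959), and for SLC40A1 MED30 (0.965), SPATA6L (0.947) and CXCL13 (0.941). The 6 genes themselves were left out of this search.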

How the data were processed

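Biotin-labelled sense targets were hybridised to Affymetrix exon arrays, per the labels' protocols. The authors deposited 1 log2 value per probe set and array. RMA, Partek and build hg18 stand in the submitters' processing notes, without versions, settings or filters. No scanner values were used, so the log2 scale is taken from RMA and from a range of 1.85 to 13.46. RMA normalizes arrays together and compresses differences of dim genes.

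Of 17629 probe sets, 14378 name 1 gene, 2405 several and 846 none in the platform annotation. Gene numbers gave current symbols from a RefSeq table (GRCh38.p14), which lacked 28. The probe set with the highest mean stood for each of 169 genes with more than 1, leaving 14207. limma 3.58.1 in R 4.3.3 was fitted on all 9 arrays with 1 mean per group and Benjamini-Hochberg adjustment over all genes (threshold 0.05), and was tested on simulated data. Having 3 arrays per group limits the precision.

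The 6 genes and the lists were chosen with earlier results of these data known. Named besides the 6 were 16 genes whatever their values, any listed gene past the threshold, and the 5 (HMOX1) or 3 genes most alike. Array numbers were checked for pairing by the correlation of deviations from group means: 0.60, 0.44 and 0.68 between the doses, taken as paired from the data and not from the labels, but from -0.14 to 0.27 against the controls, not paired. Alternatives were scaling, a filter on dim genes, a replicate block, array weights, fewer arrays and another probe set rule.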

Additional observations from a re-analysis of the deposited data

How the results depend on the processing

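HMOX1 kept its direction in all alternatives. Of the 6 genes, the count called at 100 µg/ml was 1, but 0 with quantile normalization, the replicate block or a fit of the 6 compared arrays, and 0 to 1 with single arrays left out; at 250 µg/ml it was 1, but 2 with the replicate block (FECH, adjusted p = 0.018), and 1 with any single array left out. Of the 59 listed genes the count at 100 µg/ml was 1, but 0 in the same 3 settings, 2 with array weights and 0 to 1 with single arrays left out; at 250 µg/ml it was 1, but 3 with median centring, 3 with array weights, 4 with the replicate block (ALAS1, FECH, HMOX1, SLC48A1) and 1 to 2 with single arrays left out. The numbers do not pair doses with controls, so the block is a check only; between the doses it left the count at 0. Over all genes the count at 100 µg/ml was 9, but 5 after quantile normalization, 3 under the replicate block (where HMOX1 had adjusted p = 0.071), 73 with array weights, 1 with 6 arrays, 47 without the arrays numbered 3 of both doses and 1 to 57 with single arrays left out. At 250 µg/ml it was 78, but 164 with median centring (93 higher and 71 lower, beside 55 and 23), 148 after quantile normalization (76 and 72), 130 without dim genes, 122 under the replicate block, 234 with array weights, 1 with 6 arrays, 167 without the arrays numbered 3 and 4 to 296 with single arrays left out. The cause of these shifts was not tested. Signs turned for BLVRA without control replicate 1 (-0.053 and -0.197, with highest values of 0.475 and 0.331 without control replicate 3), for TFRC at 250 µg/ml without control replicate 2 (-0.194) or 250 µg/ml replicate 1 (-0.055, highest 0.269 without control replicate 3), and for SLC40A1 at 250 µg/ml after quantile normalization (0.016) and between the doses without the arrays numbered 3 (-0.014) or without 250 µg/ml replicate 3 (-0.0054, highest 0.127 without 250 µg/ml replicate 1). SLC40A1 has no value without dim genes.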

Other observations

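Genes of mitochondrial iron supply, named after their values were seen, went opposite ways in the group means. SLC25A28 (mitoferrin 2), an importer of iron into mitochondria, read 5.38, 5.13 and 5.69 in the controls and between 5.75 and 6.31 on the treated arrays, with differences of 0.50 ± 0.18 and 0.73 ± 0.18 (limma adjusted p = 0.28 and 0.11). SLC25A37 (mitoferrin 1) read 6.80, 7.35 and 7.37 in the controls and between 6.42 and 6.95 on the treated arrays, with differences of -0.64 ± 0.20 and -0.51 ± 0.20 (0.22 and 0.25). Without control replicate 2 the values were smaller, 0.37 and 0.59 for SLC25A28 and -0.55 and -0.42 for SLC25A37. Neither gene passed at either dose, and the difference between the 2 genes was not tested. Of 12 measured genes of iron-sulphur cluster assembly 0 passed, with medians of 0.05 and 0.15, or 0.10 and 0.22 without control replicate 2. The ferrireductase gene STEAP2 lay above every control on all treated arrays, with differences of 0.67 ± 0.24 and 0.80 ± 0.24 (0.27 and 0.16). At 100 µg/ml the gap was close to none, with replicate 3 at 4.274 and control replicate 3 at 4.271. Without control replicate 2 the STEAP2 differences were 0.51 ± 0.25 and 0.64 ± 0.25 (limma adjusted p = 0.508 and 0.335).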
